A study of Mus musculus with 17 samples.

Results

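Fibrillar collagen chains were followed across total RNA-Seq libraries of cultured mouse lung fibroblasts. The group held the 8 genes Col1a1, Col1a2, Col3a1, Col5a1, Col5a2, Col5a3, Col11a1 and Col27a1, chosen by name from the 55421 genes of the deposited count table. All 17 mice carried floxed Ephb4 alleles and a tamoxifen-inducible Cre (Ephb4 f/f; Col1a2-CreERT2). At 4 weeks of age Ephb4-CKO mice received 4-hydroxytamoxifen, 1 mg per day for 5 days, and Ephb4 control mice received corn oil. At 6 weeks of age bleomycin (1.2 U/kg) or PBS was given, which made 4 groups of 4 control PBS, 4 control bleomycin, 5 CKO PBS and 4 CKO bleomycin mice. Fibroblasts were isolated 14 days later, grown in serum-containing medium and passaged a single time, and each library came from 1 mouse. The Cre is driven by regulatory sequence of Col1a2, which is itself 1 of the 8 genes, and no group held mice that lacked the Cre or carried unfloxed Ephb4.

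Fibrillar collagens are secreted as procollagen trimers, trimmed outside the cell by proteinases and packed into banded fibrils that give the lung its tensile strength. Type I collagen, built from the products of Col1a1 and Col1a2, and type III collagen, built from Col3a1, form the bulk of these fibrils, while type V and type XI chains sit within them and set where fibrils start and how wide they grow. In fibrotic lung the chains are laid down in excess by activated fibroblasts and myofibroblasts.

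The 17 libraries held between 66540022 and 120554468 counts (median 93075927). Ephb4 was listed between 13.1 and 65.1 CPM in control bleomycin, 4.93 and 14.0 in CKO bleomycin, 2.32 and 33.5 in control PBS and 4.01 and 23.6 CPM in CKO PBS libraries, with overlapping ranges in each genotype comparison. The sex read from the RNA went against the label in 3 libraries (control bleomycin mouse 2 and CKO bleomycin mice 1 and 2). The label says primary fibroblasts, and this was checked with 12 fibroblast markers that are not collagens, 8 of which passed the filter on low counts. Their score, the mean log2 CPM of those 8 genes, lay between 5.74 and 6.67 in control bleomycin, -0.03 and 5.36 in CKO bleomycin, -0.08 and 5.89 in control PBS and -0.27 and 4.62 in CKO PBS libraries. Pdgfrb, a receptor of mesenchymal cells, was under 1 CPM in 5 libraries, whereas all 19 macrophage markers passed the filter and their score lay between 3.72 and 9.21. In bulk libraries such as these, fewer cells of a type and less RNA per cell cannot be told apart.

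After bleomycin, every one of the 8 chains was lower in every Ephb4-CKO library than in any Ephb4 control library. The fitted difference was largest for Col11a1 (log2 fold change -5.54 ± 2.04 SE, 4 against 4 mice) and smallest for Col27a1 (-2.78 ± 1.25). With mice left out in turn the difference stayed negative for all 8 chains, from -8.44 without CKO bleomycin mouse 2 to -4.92 without control bleomycin mouse 4 for Col11a1 and from -3.06 to -1.85 for Col27a1, the latter without control bleomycin mouse 1. Non-overlap in this direction was met by 12.2% of the 10481 genes tested. None of the 8 passed an adjusted p of 0.05 in edgeR's quasi-likelihood test, where 0% of all genes passed, and 4 of the 8 had an unadjusted p under 0.05, against 9.18% of all genes in the lower direction. That count of 4 was 8 without control PBS mouse 3, where 1153 of 10313 genes were lower at that level. A fit of only the groups compared gave 7 (1361 of 9879 genes), and so did DESeq2 (1288 of 10481 genes). With the fibroblast or the macrophage score of each library as a covariate it was 1 (278 and 213 of 10481 genes). It was 2 without control bleomycin mouse 1 or 2 (563 of 10297 and 914 of 10435 genes). Without CKO bleomycin mouse 1, 3 or 4 it was 1 (603 of 10468, 766 of 10457 and 583 of 10448 genes). The median log2 fold change was -4.04 over the 8 chains and 0.01 over all genes.

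Col1a1 encodes the more abundant chain of the type I trimer and lies on chromosome 11 (94936224 to 94953042, plus strand, GRCm38). In control bleomycin mice 1 to 4 it stood at 1514, 2239, 652 and 1268 CPM (counts scaled to the size of the library). In CKO bleomycin mice 1 to 4 it stood at 41.1, 157, 18.8 and 1.54 CPM. The highest CKO library was below the lowest control library, and the log2 fold change was -4.70 ± 2.01 (SE, edgeR, unadjusted p = 0.0334, adjusted p = 0.228). After PBS the control mice held 34.9, 1.88, 861 and 0.36 CPM and the CKO mice 2.94, 29.5, 149, 2.46 and 14.0 CPM. Mouse 3 of each genotype stood above its PBS group, and the bleomycin and PBS control mice overlapped through that mouse.

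Col1a2 encodes the other type I chain and lies on chromosome 6 (4504814 to 4541544, plus strand). Control bleomycin mice held 2794, 3682, 1749 and 3100 CPM, and CKO bleomycin mice 97.4, 467, 38.9 and 1.89 CPM. The log2 fold change between them was -4.23 ± 2.19 (edgeR, adjusted p = 0.27), and the ranges did not overlap. The PBS libraries spanned 0.981 to 1437 CPM in control and 2.32 to 326 CPM in CKO mice, with mouse 3 the highest in both. An unconfirmed gene model on the same strand, Gm43921, overlaps Col1a2, so counts of the 2 genes may be shared.

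Col3a1 encodes the only chain of type III collagen, which copolymerises with type I, and lies on chromosome 1 (45311538 to 45349706, plus strand). It had the highest mean CPM of the 8 genes in control bleomycin libraries, with 4241, 3880, 1572 and 3164 CPM in mice 1 to 4. CKO bleomycin mice held 19.4, 210, 77.1 and 2.33 CPM. No values overlapped, and the log2 fold change was -5.38 ± 2.66 (edgeR, adjusted p = 0.257). Among PBS libraries control mouse 3 reached 3669 CPM, inside the control bleomycin range, while the other 3 control PBS mice held 13.5, 4.64 and 0.701 CPM. CKO PBS mice held 1.30, 1.37, 972, 1.54 and 19.4 CPM, so mouse 3 again stood apart.

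Type V chains were measured by 3 genes. Col5a1, whose product is needed to start fibrils (chromosome 2, 27886425 to 28039514, plus strand), stood at 408, 529, 277 and 311 CPM in control bleomycin mice. In CKO bleomycin mice it stood at 28.4, 68.0, 8.46 and 0.904 CPM, and the log2 fold change was -3.85 ± 1.68 (edgeR, unadjusted p = 0.0372, adjusted p = 0.232). The ranges were apart. Col5a2, the partner chain of most type V trimers (chromosome 1, 45374321 to 45503282, minus strand), lies tail to tail with Col3a1 at a distance of 24614 bp. It was the steadiest chain in control bleomycin libraries, at 2292, 1570, 1696 and 1941 CPM, while CKO bleomycin mice held 127, 458, 61.1 and 5.74 CPM. The groups did not overlap, with a log2 fold change of -3.52 ± 1.70 (edgeR, adjusted p = 0.252).

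Col5a3, a type V chain made in fewer tissues than the others (chromosome 9, 20770050 to 20815067, minus strand), did not follow the same order of libraries. Control bleomycin mice held 133, 46.4, 12.5 and 14.0 CPM and CKO bleomycin mice 1.23, 5.57, 2.34 and 6.83 CPM. The ranges were apart but close, and the log2 fold change was -3.69 ± 1.94 (edgeR, adjusted p = 0.275). CKO bleomycin mouse 4, the lowest of its group for the other 7 chains, was the highest for Col5a3. After PBS the control mice held 1.15, 0.731, 128 and 5.92 CPM, and the CKO mice 391, 0.746, 6.68, 3.71 and 4.57 CPM. CKO PBS mouse 1 thus had the highest Col5a3 level of all 17 libraries although its Col1a1 level was 2.94 CPM.

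Col11a1, a type XI chain best known from cartilage fibrils (chromosome 3, 114030540 to 114220718, plus strand), was confined above 10 CPM to control bleomycin libraries, where it stood at 54.5, 37.9, 153 and 260 CPM. CKO bleomycin mice held 0.712, 9.73, 0.369 and 0 CPM, and the count of 0 in mouse 4 allows up to 0.0353 CPM (3 counts, counting error only). The log2 fold change was -5.54 ± 2.04 (edgeR, unadjusted p = 0.016, adjusted p = 0.218). Control PBS mice held 4.97, 0.045, 8.96 and 0 CPM and CKO PBS mice 1.19, 0.763, 4.19, 0.143 and 0.0495 CPM. Mouse 3 of the control PBS group, whose Col3a1 level was within the control bleomycin range, was at 8.96 CPM for Col11a1, below the lowest control bleomycin library. The cartilage markers Acan, Sox9, Col2a1, Matn1 and Comp did not pass the filter and summed to at most 4.92 CPM in any library.

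Col27a1, a minor fibrillar chain also known from cartilage (chromosome 4, 63214004 to 63334991, plus strand), was the lowest of the 8 in control bleomycin libraries at 18.5, 5.79, 2.73 and 3.10 CPM. CKO bleomycin mice held 1.29, 1.33, 1.51 and 0.258 CPM, all lower, with a log2 fold change of -2.78 ± 1.25 (edgeR, unadjusted p = 0.0418, adjusted p = 0.236). PBS libraries spanned 0.19 to 20.1 CPM in control and 0.982 to 18.7 CPM in CKO mice, so the control bleomycin range lay inside the control PBS range. The precursor of Mir455 lies within Col27a1 on the same strand. The remaining fibrillar chains, Col2a1, Col11a2 and Col24a1, did not pass the filter, and the highest of their values was 10.2 CPM (Col24a1, CKO PBS mouse 4).

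**Figure D1:**
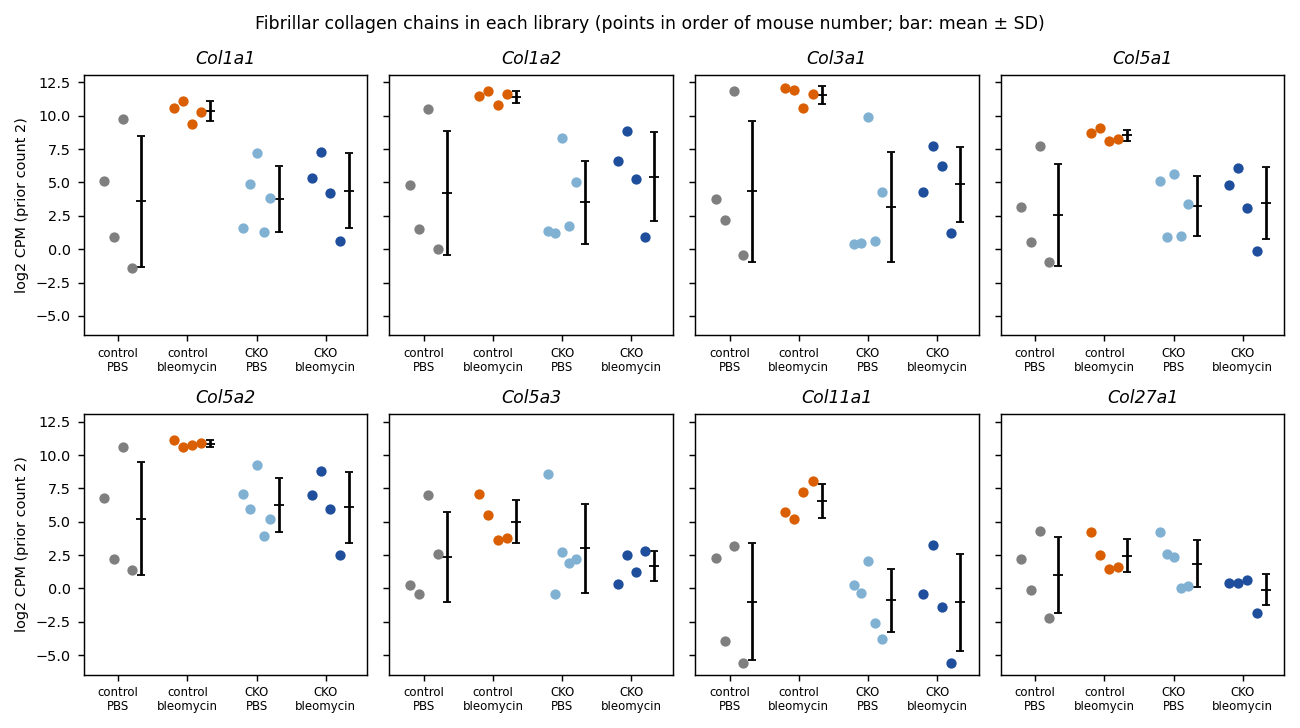
Each panel plots 1 chain, with the log2 CPM (prior count 2) of each library on the vertical axis, the 4 groups on the horizontal axis, a point for each mouse and a bar for the mean ± SD. In all 8 panels the 4 control bleomycin points lie above the 4 CKO bleomycin points, and mouse 3 of the control PBS group lies near the control bleomycin points for every chain but Col11a1.

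The comparison of bleomycin with PBS in Ephb4 control mice asks what the injury left in cells cultured without further treatment. All 8 chains had a positive log2 fold change, with a median of 2.42 against -0.06 over all genes, and 0 of the 8 passed an adjusted p of 0.05 in edgeR, against 0% of all genes tested. The log2 fold change of Col11a1 was 5.18 ± 2.01 (edgeR, unadjusted p = 0.0209, adjusted p = 0.32), and it was the 1 chain of the 8 that was higher at an unadjusted p under 0.05, against 6.28% of all genes. Non-overlapping higher values were found for 4 of the 8 (Col1a2, Col5a1, Col5a2 and Col11a1), against 5.72% of all genes. The log2 fold change was 2.66 ± 1.83 for Col1a1, 2.95 ± 2.06 for Col1a2, 1.80 ± 2.27 for Col3a1, 2.80 ± 1.61 for Col5a1 and 2.19 ± 1.61 for Col5a2. It was 0.60 ± 1.75 for Col5a3 and 0.23 ± 1.17 for Col27a1, both smaller than their standard errors and both below 0 without control bleomycin mouse 1 (-0.45 and -0.71). These values rest on control PBS mouse 3: without it the median was 6.53 and 7 of the 8 had an unadjusted p under 0.05. Over all genes the number higher at that level also rose without it, from 658 of 10481 to 1313 of 10313. In the same comparison all 7 markers of smooth muscle cells and myofibroblasts were higher without overlap (median log2 fold change 3.89), as were 3 of the 8 fibroblast markers (median 1.84). Of the 19 macrophage markers 16 gave a negative log2 fold change (median -0.86), as did all 7 epithelial markers (median -0.95). With the fibroblast score of each library as a covariate in edgeR, the median log2 fold change of the 8 chains in this comparison was 0.43, with Col3a1 at -0.55, Col5a3 at -0.63 and Col27a1 at -1.30.

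The other 3 comparisons gave smaller or less settled values. Between genotypes after PBS, 7 of the 8 chains had a negative log2 fold change (median -1.45, against -0.02 over all genes), 0 of the 8 had an unadjusted p under 0.05 against 1.99% of all genes, and 0 passed the adjusted threshold against 0%. Col1a1 gave -2.51 ± 1.68 and Col5a3, the only positive chain, 1.26 ± 1.70. Without control PBS mouse 3 the median was 2.31, and without CKO PBS mouse 3 it was -2.73, so the direction of this difference was set by 1 library. The count at an unadjusted p under 0.05 was 1 without control PBS mouse 3 or CKO PBS mouse 1, against 135 of 10313 and 99 of 10453 genes. It was 3 without CKO PBS mouse 3, against 550 of 10446 genes. Bleomycin against PBS in CKO mice split the chains 4 and 4, with a median of 0.17 against -0.03 over all genes. That median was -1.60 without CKO bleomycin mouse 2, 1.78 without CKO PBS mouse 3, and -0.08, -0.12 and -0.04 without CKO PBS mouse 2, 4 or 5. Here Col5a3 was lower at an unadjusted p of 0.0431 (log2 fold change -4.35 ± 1.97, edgeR adjusted p = 1), against 0.716% of all genes lower at that level and 0% at the adjusted threshold, and without CKO PBS mouse 1 its value was 0.02. The count of chains at that level was 0 without control bleomycin mouse 2, CKO PBS mouse 1 or any 1 of the 4 CKO bleomycin mice. In those fits 31 (of 10451) to 214 (of 10457) genes were at that level in either direction. It was 2 without control PBS mouse 2, 3 or 4 or CKO PBS mouse 4 or 5, where 94 (of 10472) to 138 (of 10470) genes were. Col27a1 gave -2.53 ± 1.20. The interaction of genotype and bleomycin was negative for all 8 chains (median -2.58, all genes -0.00), with 0 of the 8 past the adjusted threshold in edgeR against 0% of all genes. At an unadjusted p under 0.05 were 0 of the 8, against 363 of 10481 genes. The values were largest for Col5a3 (-4.95 ± 2.57) and Col11a1 (-4.09 ± 2.45). With mice left out in turn Col5a3 ranged from -8.71 without control PBS mouse 3 to -0.58 without CKO PBS mouse 1, and Col11a1 from -6.98 without CKO bleomycin mouse 2 to -2.84 without CKO PBS mouse 3. Without control PBS mouse 3 the median interaction was -6.36, and 7 chains had an unadjusted p under 0.05, where 1209 of 10313 genes did. Without CKO bleomycin mouse 2 it was 1 chain, where 599 of 10451 genes were at that level. Without CKO PBS mouse 3 the median was -1.25. All these comparisons share groups with each other, and both main comparisons share the 4 control bleomycin libraries.

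**Figure D2:**
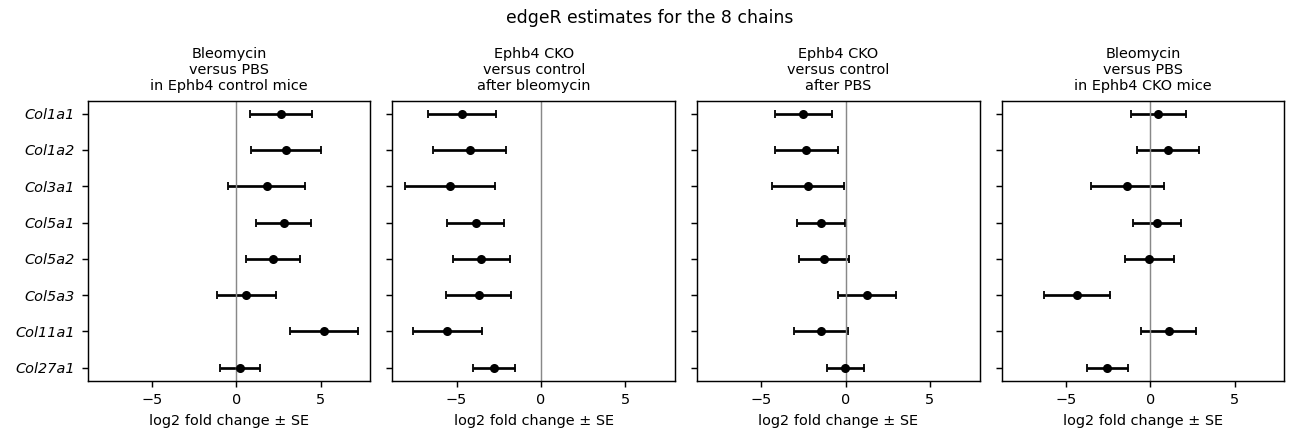
Each panel is 1 comparison, with the edgeR log2 fold change ± SE on the horizontal axis and the 8 chains on the vertical axis. All 8 points lie left of 0 for CKO against control after bleomycin, from -5.54 to -2.78, and all 8 lie right of 0 for bleomycin against PBS in control mice, from 0.23 to 5.18.

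The call depended on the test. With DESeq2, Col1a1 (adjusted p = 0.0468) and Col11a1 (adjusted p = 0.0365) passed the threshold between genotypes after bleomycin, 2 of 8 against 3.84% of all genes with an adjusted p. For bleomycin against PBS in control mice DESeq2 called 0 of the 8, against 1.6% of all genes, and the lowest adjusted p was 0.0709 for Col11a1. DESeq2 gave no p for Col5a2. Between genotypes after PBS and between bleomycin and PBS in CKO mice DESeq2 called 0 of the 8, against 0.00962% of all genes in each, and for the interaction 0 of the 8 against 0%. With limma voom 0 of the 8 and 0 of all genes passed in each of the 5 comparisons.

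Levels of different chains were compared per length, as CPM divided by the length in kb of the longest coding transcript. In control bleomycin libraries Col3a1 (578 ± 213 SD CPM per kb, n = 4) and Col1a2 (529 ± 151) led, followed by Col5a2 (283 ± 48.0) and Col1a1 (239 ± 111), then Col5a1 (45.4 ± 13.5), Col11a1 (16.5 ± 13.4), Col5a3 (8.42 ± 9.25) and Col27a1 (0.99 ± 0.978). Neighbours in this order had overlapping ranges, except Col1a1 and Col5a1. Col1a1 was thus below Col1a2 per length, and the raw count ratio of Col1a1 to Col1a2 was 0.373 to 0.608 in this group. The 8 chains together took 0.675% to 1.49% of all counts in control bleomycin libraries and 0.0019% to 0.146% in CKO bleomycin libraries. Among PBS libraries the share was 0.00105% to 0.987% in control and 0.00275% to 0.222% in CKO mice.

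The make-up of the summed CPM per kb also varied. In the 4 control bleomycin libraries Col1a2 took 26.6% to 33.5% and Col3a1 27.4% to 38.8% of the sum, with Col3a1 leading in mice 1 and 2 and Col1a2 in mice 3 and 4. In the same libraries Col5a2 took 11.4% to 24.8%, Col11a1 0.238% to 1.96% and Col5a3 0.132% to 1.11%. In 3 of the other libraries Col5a3 led, at 69.3% in CKO PBS mouse 1, 53.4% in control PBS mouse 4 and 35.4% in CKO bleomycin mouse 4. Summed counts of the 8 chains in those libraries were 48205, 1122 and 1660, so the last 2 shares rest on few counts. Col5a2 led in 4 libraries, up to 57.5% in CKO PBS mouse 2, where Col1a1 took 30.8% and Col1a2 2.68%. In that library the count ratio of Col1a1 to Col1a2 was 12.7, whereas the other 16 libraries lay between 0.336 and 1.27. CKO PBS mouse 2 was also the library with the highest level of the mesothelial marker Msln, 602 CPM, and of the epithelial marker Krt8, 1044 CPM. Epcam, Cdh1, Krt18 and Krt19 were highest there too. The other mesothelial markers were low in it (Wt1 and Lrrn4 0, Upk3b 0.102 and Upk1b 0.661 CPM), and Sftpb (1.07 CPM), Sftpc (3.44 CPM) and Nkx2-1 were not at their highest. The part of mesothelial or epithelial cells in its ratio was not tested. CKO PBS mouse 1 held Dcn, a fibril-binding proteoglycan, at 770 CPM, above the other 16 libraries. The fibroblast markers Fstl1 (893 CPM) and Thy1 (11.2 CPM) were also higher there than in any other PBS library. Pdgfra (2.89 CPM), Prrx1 (0.817 CPM), Pdgfrb, Fbln1 and Mfap4 were below every control bleomycin library, as was Thy1, while Fstl1 lay within the control bleomycin range.

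**Figure D3:**
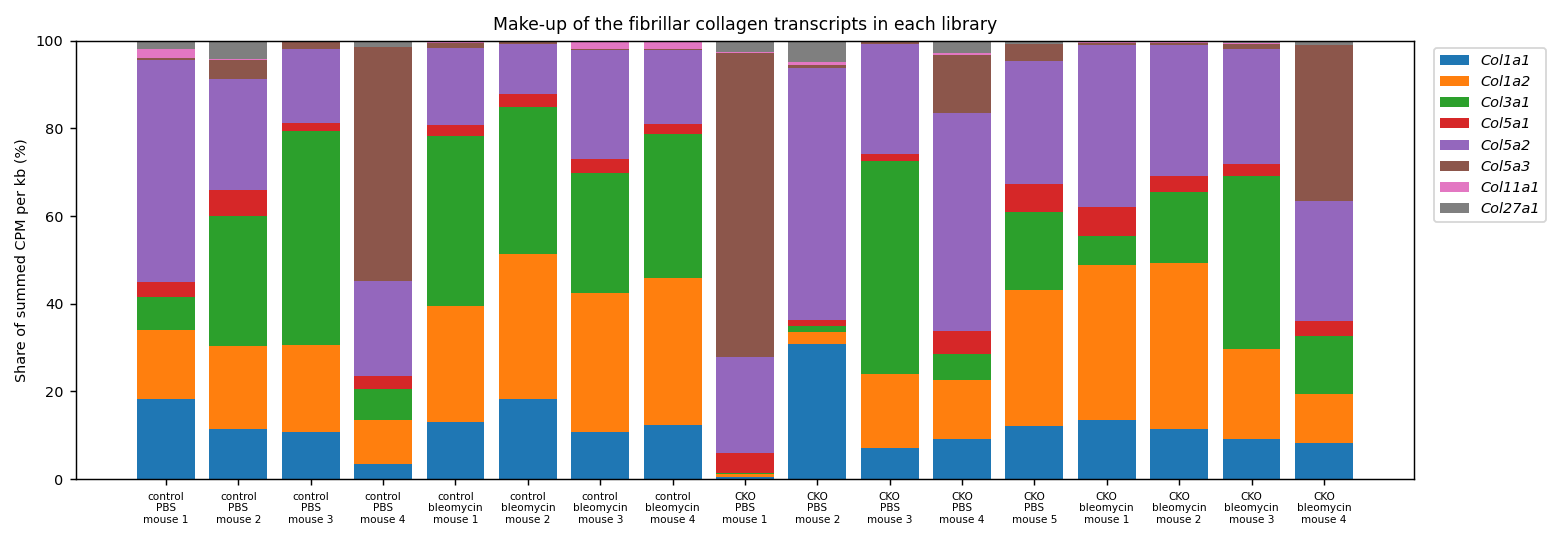
Stacked bars give, for each of the 17 libraries on the horizontal axis, the share in percent of each chain in the summed CPM per kb of the 8 chains. Col3a1 or Col1a2 takes the largest share of each control bleomycin bar, and Col5a3 fills 69.3%, 53.4% and 35.4% of the bars of CKO PBS mouse 1, control PBS mouse 4 and CKO bleomycin mouse 4.

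Ratios of chains within a library do not depend on the scaling of library sizes, and 7 were compared over 4 comparisons, 28 tests in all. None passed after Benjamini-Hochberg adjustment. After bleomycin the log2 ratio of Col5a1 to Col1a1 was -0.91 ± 0.32 (SD, n = 4) in CKO and -1.81 ± 0.39 (n = 4) in control libraries, a difference of 0.89 without overlap (2-sided exact permutation p = 0.0286, adjusted 0.4). With 4 against 4 mice 0.0286 is the smallest p that this test allows. A few differences at that p cannot pass adjustment over 28 tests, so the lack of a pass decides nothing about the ratios. The log2 ratio of Col27a1 to Col1a1 was -7.88 in control bleomycin and -2.58 in control PBS libraries, a difference of -5.30 without overlap (exact permutation p = 0.0286, adjusted 0.4). The log2 ratio of Col11a1 to Col5a1 was -4.97 in CKO and -1.96 in control libraries after bleomycin, and the ranges overlapped (difference -3.02, exact permutation p = 0.0857, adjusted 0.6). The ratio of Col1a1 to Col1a2 differed by 0.04 on the log2 scale between the same groups (exact permutation p = 0.914), within SDs of 0.54 and 0.33.

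The chains were also read against the collagen-free fibroblast score of the same library, since that score was lower in CKO than in control bleomycin libraries. All 8 fibroblast markers that passed the filter were lower in CKO (median log2 fold change -2.25), 5 without overlap against 12.2% of all genes. Of these 8 markers 1, Fstl1, had an unadjusted p under 0.05 in edgeR, against 9.18% of all genes in the lower direction. All 19 macrophage markers gave a positive log2 fold change (median 1.14), 7 without overlap against 11% of all genes, and 5 had an unadjusted p under 0.05 (Cd68, Csf1r, Marco, Fcer1g and Spi1), also against 11% of all genes in the higher direction. The 12 fibroblast markers summed to 1321 to 2195 CPM in control and 126 to 999.97 CPM in CKO bleomycin libraries, and the 19 macrophage markers to 1328 to 20537 and 22982 to 43388 CPM. All 7 smooth muscle and myofibroblast markers were lower (median -2.49), 5 without overlap against 12.2% of all genes. The median was -0.89 over 7 endothelial and 0.37 over 7 epithelial markers. Relative to the fibroblast score, Col1a1 was at 1.80 ± 0.81 (SD, n = 4) in CKO and 4.12 ± 0.54 in control bleomycin libraries, a log2 difference of -2.31 without overlap. Differences without overlap were also found for Col1a2 (-2.35), Col3a1 (-3.04), Col5a2 (-1.14) and Col11a1 (-3.95), each with an exact permutation p of 0.0286 and an adjusted p of 0.114 over 32 tests. That p is the smallest this test allows here. The share of all genes without overlap on this scale was not computed, so the number of such chains has no background to be read against. Col5a1 overlapped at -1.42 (exact permutation p = 0.0571). Col5a3 (0.34) and Col27a1 (1.08) had positive differences within overlapping ranges (exact permutation p = 0.914 and 0.286). In control mice Col27a1 was lower relative to the score after bleomycin than after PBS, by a log2 difference of -2.81 without overlap (exact permutation p = 0.0286, adjusted 0.114). With the score as a covariate in edgeR the median log2 fold change between genotypes after bleomycin was -0.41 over the 8 chains, with Col11a1 at -4.01, Col1a1 at -1.89 and Col3a1 at 0.69. The part of cell make-up and of genotype in these differences cannot be told apart here, because score and group move together.

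**Figure D4:**
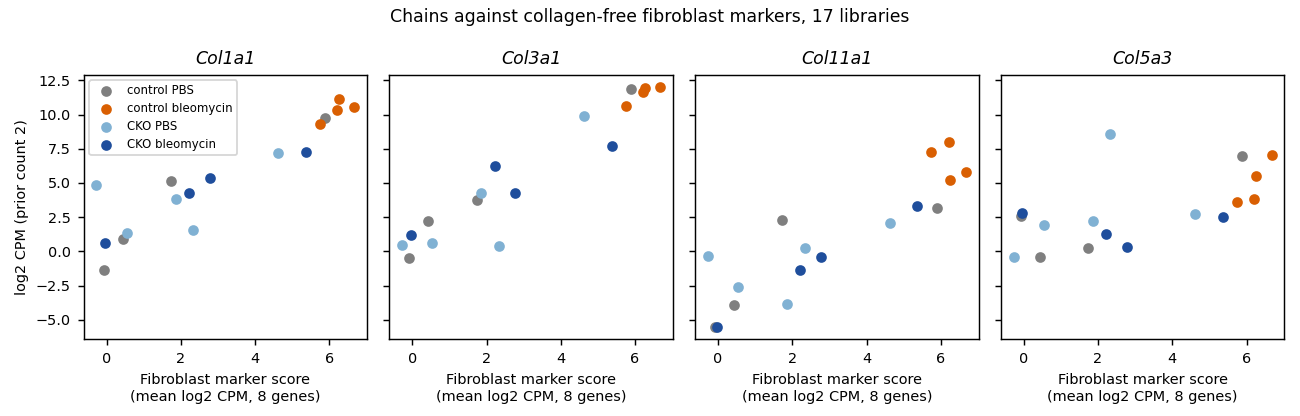
Each panel plots the log2 CPM (prior count 2) of 1 chain on the vertical axis against the fibroblast marker score of the same library (mean log2 CPM of 8 genes) on the horizontal axis, with a point for each of 17 libraries colored by group. Col1a1 and Col3a1 tend to rise with the score, with departures. CKO PBS mouse 2 has the lowest score (-0.27) but stands at 4.89 for Col1a1, and CKO PBS mouse 1 (score 2.33) stands at 0.41 for Col3a1. The 4 control bleomycin points stand above control PBS mouse 3 for Col11a1, and CKO PBS mouse 1 stands highest for Col5a3.

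Among animals of the number series 12 in the sample titles, which held all 4 control bleomycin mice and 2 CKO bleomycin mice, the median log2 fold change of the chains between genotypes after bleomycin was -3.57. Without the 3 libraries that went against the labelled sex it was -6.24, with 1 less control and 2 fewer CKO mice. Without CKO bleomycin mouse 2, the highest of its group for 6 of the chains, it was -5.43. Only 1 control PBS mouse was of that series, and with the series as a covariate the median for bleomycin against PBS in control mice was 2.66. In that fit 0 chains had an unadjusted p under 0.05, against 628 of 10481 genes. Samples were divided for sequencing into a run of 8 and a run of 9, and the order of columns was used as a stand-in for the run. With it the median between genotypes after bleomycin was -3.55 with 1 chain at an unadjusted p under 0.05, where 945 of 10481 genes were lower at that level.

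Genes of the machinery that makes fibrils were lower in the same comparison. After bleomycin Serpinh1, the collagen chaperone of the endoplasmic reticulum, was lower in CKO without overlap (log2 fold change -3.21 ± 1.17, edgeR adjusted p = 0.218), with 889 to 1682 CPM in control and 17.2 to 293 CPM in CKO libraries. P4ha1, a subunit of prolyl hydroxylase, gave -1.23 ± 0.43, and Lox, which cross-links fibrils, -2.90 ± 0.92, both without overlap. Of all genes tested 12.2% were lower without overlap in this comparison. Pcolce, an enhancer of procollagen C-proteinase, gave -2.07 ± 1.41 and Ddr2, a collagen receptor, -2.28 ± 1.40, also without overlap, and Adamts2, a procollagen N-proteinase, gave -2.07 ± 0.93 with overlap. By lists, 15 of 17 tested genes of procollagen modification and folding were lower, 11 of them at an unadjusted p under 0.05 (9.18% of all genes), and Tmem38b was higher at that level. Of 10 procollagen export genes 8 were lower, 7 at that level, with a smaller median log2 fold change (-0.92) than the modification genes (-2.11). All 5 tested proteinases and enhancers were lower, 2 at that level (Adamts2 and Bmp1), and 5 of 6 cross-linking enzymes, 2 at that level (Lox and Loxl2). Of 7 tested collagen receptors 5 were lower, 1 at that level (Itgb1). Of 9 tested genes of collagen degradation and its inhibitors 6 were lower, 2 at that level (the protease Mmp2 and the inhibitor Timp3). The lower genes were Mmp2, Mmp9 and Mmp14 and the inhibitors Timp1, Timp2 and Timp3. The proteases Mmp8 (log2 fold change 0.73), Mmp13 (0.45) and Ctsk (1.66) were higher, so this list gives no direction for degradation. All 3 tested fibril-associated collagens were lower, 1 at that level (Col14a1), as were all 3 tested fibril-binding proteoglycans, 0 at that level. In edgeR 0 of the 60 genes tested on these lists passed the adjusted threshold, and limma voom also called 0. DESeq2 called 14 of the 53 to which it gave an adjusted p, 13 lower (P4hb, P3h1, P3h3, Serpinh1, Sec13, Sec31a, Sec23a, Sec24d, Creb3l1, Lox, Loxl2, Itgb1 and Timp3) and Tmem38b higher, with adjusted p-values from 0.000523 for Timp3 to 0.0485 for P3h3, and it called 3.84% of all genes. Genes outside the 6 named by rule were named after their values were seen.

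The genes whose log2 CPM followed each chain most closely over the 17 libraries were listed as a description, since all points share the same libraries and the same difference in fibroblast markers. Col1a1 was nearest to Serpinh1 (Pearson r = 0.989), then Kif26b, Kctd15, Col16a1 and Tgfb3. Col1a2 was nearest to the overlapping model Gm43921 (0.99), then Bnc2, Mylk, Nid2 and Bgn. Col3a1 was nearest among all genes to Col1a2 (0.978), and outside the 8 chains to Hic1 (0.977), Mrc2, Fam20a, Gas1 and Gm43921. Col5a1 was nearest to Pdzrn3 (0.984), Antxr1, Gfpt2, Lama4 and Foxf1, and Col5a2 to Sulf1 (0.988), Fkbp10, Col12a1, Cacna2d1 and Hoxa3. Col11a1 was nearest to Plod2 (0.976), a lysyl hydroxylase of procollagen, then Gulp1, Armcx1, Ncam1 and Sparc. Col27a1 was nearest to Twsg1 (0.951), Plekha5, Msantd3, Mboat2 and Tspan7. Col5a3 had the lowest top value, 0.913 with Boc, then 6530402F18Rik, Extl3, Nfkbiz and Ahi1, and its r with Col1a1 was 0.391. By contrast Col1a1 and Col5a2 stood at 0.957 and Col5a1 and Col5a2 at 0.968.

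Promoters were inspected for 4 chains that differ in their order over libraries, as the 120 bases before the RefSeq transcript start (GRCm38.p6). Col3a1 and Col5a1 belong to the chains that move together, Col11a1 is nearly limited to control bleomycin libraries and Col5a3 follows another order. Capitals mark matches on either strand to the TATA box core TATAAA, the CCAAT box, the GC box core GGGCGG, the SMAD element CAGACA or the AP-1 site TGANTCA, and no match overlaps another here.
Col3a1, chr1:45311418-45311537, plus strand: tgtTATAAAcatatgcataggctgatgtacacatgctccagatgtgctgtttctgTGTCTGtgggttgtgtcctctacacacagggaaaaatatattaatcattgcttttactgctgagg
Col5a1, chr2:27886305-27886424, plus strand: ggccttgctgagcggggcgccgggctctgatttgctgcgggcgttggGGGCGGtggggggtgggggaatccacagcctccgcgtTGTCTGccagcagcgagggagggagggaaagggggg
Col5a3, chr9:20815068-20815187, minus strand: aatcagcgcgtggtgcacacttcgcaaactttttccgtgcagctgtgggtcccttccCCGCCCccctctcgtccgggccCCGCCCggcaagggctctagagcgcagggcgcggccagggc
Col11a1, chr3:114030420-114030539, plus strand: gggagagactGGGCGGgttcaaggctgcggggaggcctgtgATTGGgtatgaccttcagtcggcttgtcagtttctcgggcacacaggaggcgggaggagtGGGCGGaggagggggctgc

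Promoter entries were found for 6 of the 8 chains, all but Col1a1 and Col5a2. Over the 250 bases before the start, the GC box core GGGCGG was present in 5 of the 6 (32.7% of 32851 promoters), in all but Col3a1. The SMAD element CAGACA was present in 3 of the 6, Col1a2, Col3a1 and Col5a1 (17.1% of promoters), the CCAAT box in 3 of the 6, Col1a2, Col5a3 and Col11a1 (33.8%), and the TATA box core TATAAA in Col3a1 alone (12.4%). The AP-1 site TGANTCA was in 0 of the 6 windows (6.75% of promoters). GC content of the window was 35.2% for Col3a1 and 59.6% to 76.4% for the other 5, with a mean of 53.2% over all promoters. These matches are letters in a window, and no binding was measured.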

How the data were processed

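Total RNA-Seq of 17 mouse lung fibroblast cultures was analysed from the deposited table of raw counts per gene. Per the labels and the study's methods, the authors trimmed adapters with cutadapt (1.18 in the submitters' processing notes, another version in the methods), aligned reads to GRCm38 with HISAT2 2.1.0 under a reverse-stranded setting, quantified them with StringTie and exported raw integer counts with prepDE, without normalization, for 55421 genes. The StringTie options named in the methods hold no strand setting of their own. Groups were taken from the sample labels. Genes with more than 10 raw CPM in at least 2 libraries were kept (10481, all 8 chains among them), scaled by TMM and tested in edgeR 4.0.16 (R 4.3.3) with the quasi-likelihood test over all 4 groups, with Benjamini-Hochberg adjustment over all kept genes at 0.05. CPM are per TMM-scaled library size. Log2 CPM used a prior count of 2, and chain ratios added 0.5 to each count. Single values were compared by 2-sided exact permutation tests. DESeq2 1.42.0, limma voom 3.58.1, RLE scaling, other filters, covariates and left-out mice were alternatives. The fit was tested on simulated counts, with a required result only at a dispersion of 0.05. The common dispersion of these data was 0.311, so that test gives no measure of power here. Promoters were taken from RefSeq (GRCm38.p6) and gene positions and lengths from GENCODE M21. Named genes were the 8 chains, the remaining fibrillar chains, Ephb4, 6 genes of collagen processing and the 5 genes nearest to each chain by Pearson r. The members, lists and comparisons were chosen with earlier results of these data known, so patterns already seen are no independent support. Depth was 66540022 to 120554468 counts, so the spread between mice, not counting error, set the precision of all but the lowest values.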

Additional observations from a re-analysis of the deposited data

Results flagged for a closer look

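In 14 of 32 sets of CPM values (8 chains in 4 groups) the highest library lay farther from the next than Dixon's 95% criterion allows. For normally distributed values chance gives this in about 1 set of 20. These CPM were not on a log scale and were skewed, spanning 5235-fold for Col3a1 in control PBS libraries. The count of 14 therefore cannot be set against that rate and only marks libraries that stood apart. The sets share libraries, so they are not independent. Control PBS mouse 3 stood apart for Col1a1 (861 CPM), Col1a2 (1437 CPM), Col3a1 (3669 CPM), Col5a1 (208 CPM), Col5a2 (1527 CPM) and Col5a3 (128 CPM). CKO PBS mouse 3 stood apart for Col1a1 (149 CPM), Col1a2 (326 CPM), Col3a1 (972 CPM), Col5a2 (598 CPM) and Col11a1 (4.19 CPM). These were also the PBS libraries with the highest fibroblast score in their groups, 5.89 and 4.62. CKO PBS mouse 1 stood apart for Col5a3 (391 CPM) and Col27a1 (18.7 CPM), and its fibroblast score was 2.33. CKO bleomycin mouse 2 stood apart for Col11a1 (9.73 CPM) and had the highest fibroblast score of its group, 5.36.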

How the results depend on the processing

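No chain passed the adjusted threshold in any comparison under the alternatives run, except 2 under DESeq2 between genotypes after bleomycin. No ratio or fibroblast-relative difference passed under any. With so few mice the exact permutation test cannot reach that threshold unless many tests sit at its smallest p, so this decides nothing about them. No paired analysis was possible because the mouse numbers were assigned in accession order and mark no shared animal, litter or day. Between genotypes after bleomycin the median log2 fold change stayed negative, from -6.24 to -0.41, the latter with the fibroblast score as covariate, where Col3a1 reversed to 0.69. The number of chains at an unadjusted p under 0.05 ranged there from 1 to 8, and that of all genes from 385 of 10481 to 2815 of 9879. For bleomycin against PBS in control mice the median was 6.44 with limma voom, 0.43 with the fibroblast score as covariate and 6.53 without the PBS mice numbered 3 (chosen after seeing the data), and 2.003 to 6.53 when mice were left out in turn. Col3a1 was -0.55 with the fibroblast score. Col5a3 was -1.36 with the number series and -0.63 with the fibroblast score, and -0.45 to 4.36 with mice left out. Col27a1 was -0.78 with the number series, -1.30 with the fibroblast score and -0.39 with the macrophage score, and -0.71 to 2.03 with mice left out. Between genotypes after PBS the median spanned -2.73 to 2.31 with mice left out. Col1a1 was 0.20 with limma voom, 0.84 with the fibroblast score and 0.021 without the PBS mice numbered 3, and -4.23 to 1.68 with mice left out, and Col5a3 was -0.55 with the number series and -3.14 to 4.99 with mice left out. Col5a3 in CKO mice, bleomycin against PBS, was -4.74 to 0.022 with mice left out. The median interaction was -5.75 with limma voom and -6.36 to -1.25 with mice left out. With mice left out the log2 ratio of Col1a1 to Col1a2 between genotypes after bleomycin was -0.21 to 0.22, and Col5a3 relative to the fibroblast score -0.89 to 1.00. The causes of these changes were not tested. Ranking by Spearman's rho kept 1 to 3 of the 5 nearest genes of each chain. Series 12 alone could not be fitted for the comparisons with control PBS, which held 1 such mouse.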
